A study of Drosophila melanogaster with 2 samples.

Results

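The genes studied here encode subunits of the mitochondrial respiratory chain and of ATP synthase in Drosophila melanogaster. They were taken by name, as protein-coding genes on the nuclear chromosome arms whose symbol begins with ND-, UQCR-, COX and a digit, or ATPsyn. This gave 80 of 13968 protein-coding genes: 40 of complex I, 9 of complex III, 16 of complex IV and 15 of ATP synthase. Binding of CG4404, an uncharacterised protein, had been mapped by chromatin immunoprecipitation and sequencing (ChIP-seq). The samples were whole embryos of the transgenic strain CG4404-GFP, aged 0 to 4 hours, and the antibody recognised the green fluorescent tag of the fusion protein. They formed 1 group of 2 biological replicates that share a strain, so the transgene was present in every sample and no comparison between conditions or test between samples was possible. The labels do not say which promoter drives the fusion protein, and whole embryos mix all cell types of those stages, so a peak cannot be assigned to a cell type. Measurements of RNA or protein were not used here.

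Complex I takes electrons from NADH, complex III passes them by way of cytochrome c to complex IV, and complex IV hands them to oxygen. The proton gradient that this builds across the inner mitochondrial membrane drives ATP synthase. Apart from a few subunits encoded by mitochondrial DNA, all the parts are nuclear genes that have to be made in matched amounts, and several have a later, duplicated copy in flies, often expressed mainly in testis.

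The thresholded peak lists hold peaks with an irreproducible discovery rate (IDR), which estimates how often peaks of such a rank fail to be found again in a second call, of at most 0.01. A gene was called bound when the summit of a peak in the pooled thresholded list lay within 500 bp of one of its transcription start sites (TSSs). By this rule 13 of the 80 members were bound, or 16.25% (95% Wilson interval 9.75 to 25.8%, which covers counting error only), against 14.2% of all protein-coding genes. The share of the members was therefore near that of the genome as a whole. Complex I had 7 of 40 bound (17.5%, 8.75 to 31.95%), complex IV 4 of 16 (25%, 10.2 to 49.5%) and ATP synthase 2 of 15 (13.3%, 3.74 to 37.9%). Complex III had 0 of 9, a number of genes so small that a count of 0 still allows a share of up to 33.3%. The intervals of the complexes overlap one another and hold the share of all genes.

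Among the 80 members the strongest summits lay at complex I genes. Signal here is the peak caller's own value for a peak as the authors deposited it, on a scale that is not given in the sources used here, so it was only ranked within a list. ND-MWFE, an accessory subunit of the membrane arm, had a pooled signal of 477, with 278 in replicate 1 and 203 in replicate 2, and ranked 230 among the 3835 thresholded peaks on the arms. ND-ASHI, another accessory subunit of that arm, had 287 in the pooled list, 166 in replicate 1 and 127 in replicate 2. ND-SGDH, also of the membrane arm, followed with 246 in the pooled list, 157 in replicate 1 and 82.8 in replicate 2. All of them passed the threshold in each replicate alone.

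Of the 7 nuclear genes for core subunits of complex I, the conserved set that carries the redox centres, 2 were bound. ND-24 and ND-51 encode the neighbouring flavoprotein subunits at the tip of the enzyme, where NADH is oxidised. ND-24 had a signal of 235 in the pooled list, 141 in replicate 1 and 88.9 in replicate 2. ND-51 had 146 in the pooled list, 112 in replicate 1 and 39.4 in replicate 2, where it was a candidate that did not pass the threshold. Among the other core genes, ND-23 had a candidate summit of signal 57.4, ND-30 one of 10.5 and ND-75 one of 5.36. ND-20 and ND-49 had no candidate summit within 500 bp of a TSS. ND-42 and ND-MNLL, accessory subunits of the membrane arm, completed the bound genes of complex I. The pooled signal of ND-42 was 107, with 81.4 in replicate 1 and 34.3 in replicate 2. That of ND-MNLL was 84.2, with 46.7 in replicate 1 and 40.7 in replicate 2.

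In complex IV the bound genes were COX5A, COX5B, COX6B and COX7B, all of them small nuclear subunits that surround the catalytic core encoded by mitochondrial DNA. COX5A had a signal of 138 in the pooled list, 65.1 in replicate 1 and 80.2 in replicate 2, and COX7B had 130, 61.2 and 68.0 in the same order. COX5B had 111 in the pooled list, 66.6 in replicate 1 and 50.02 in replicate 2. COX6B had 74.0 in the pooled list, 45.7 in replicate 1 and 37.7 in replicate 2. The bound members of complex IV thus spanned a pooled signal of 74.0 to 138, and those of complex I spanned 84.2 to 477. The naming rule sets this contrast in part, since levy, a complex IV subunit with another kind of name, was bound at 559.

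The bound members of ATP synthase were genes of the membrane part and the peripheral stalk, while blw, which encodes the alpha subunit of the catalytic head and falls outside the naming rule, was bound at 475. ATPsynE, the small subunit e of the membrane part, had a signal of 129 in the pooled list, 65.5 in replicate 1 and 63.3 in replicate 2. ATPsynCF6, coupling factor 6 of the peripheral stalk, had the lowest signal of the 13 with 67.3 in the pooled list, 30.5 in replicate 1 and 38.4 in replicate 2. ATPsyngamma, the central stalk, had only a candidate summit of signal 31.1. ATPsynbeta, the catalytic subunit, had none, but it lies on arm 4, as does ND-49, and that arm held 17 candidate peaks and 0 thresholded ones. The 0 at these 2 genes was not read as an absence of binding.

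**Figure D1:**
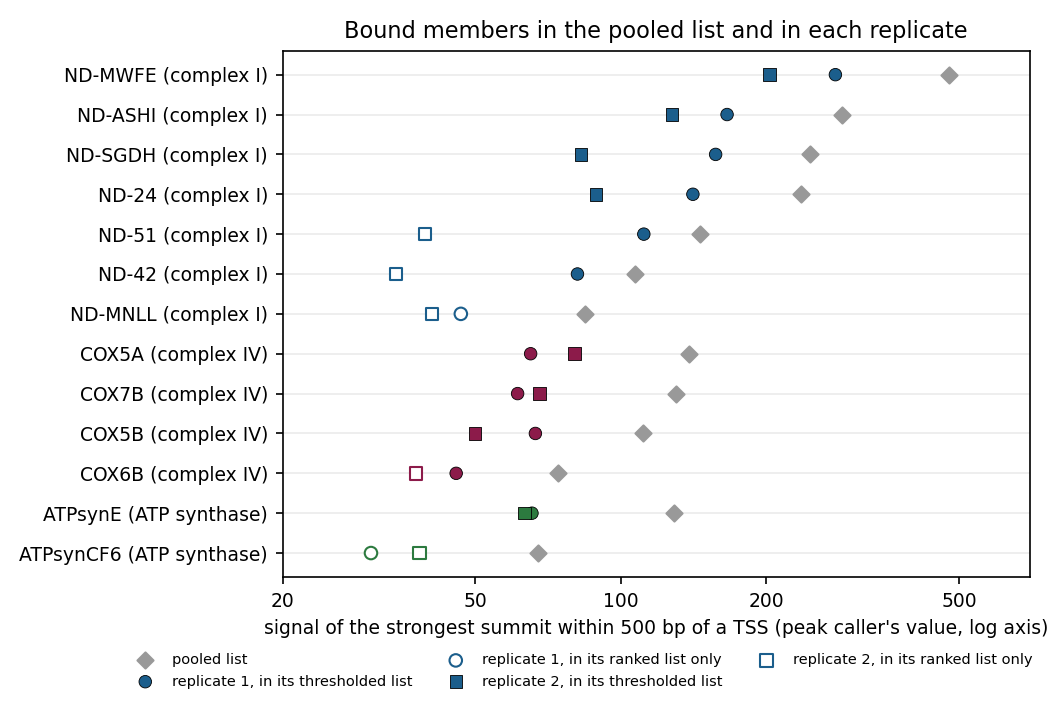
Signal of the strongest summit within 500 bp of a TSS (horizontal log axis, the peak caller's value) for the 13 bound members, coloured by complex. Diamonds give the pooled list, circles replicate 1 and squares replicate 2, with open symbols where the replicate's own thresholded list lacks the peak; the 4 strongest complex I genes lie above all other members in the pooled list, and ATPsynCF6 (67.3) is the lowest.

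The replicates were then set beside each other, because each of them gives fewer thresholded peaks than the pool. Replicate 1 alone had 11 members bound (13.75%, against 12.9% of all protein-coding genes) and replicate 2 alone had 8 (10%, against 10.2%). Both lists held 8 of the 13 bound members (61.5%), against 64.7% of all bound protein-coding genes. ND-51, ND-42 and COX6B were thresholded in replicate 1 and not in replicate 2, no member in replicate 2 only, and ND-MNLL and ATPsynCF6 in neither. In the candidate lists the signal was higher in replicate 1 for 10 of the 13, and higher in replicate 2 for COX5A, COX7B and ATPsynCF6. The replicates carry separate biological replicate numbers, and the depth of their libraries was not used here.

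Ranked within the pooled thresholded list, the bound members were of middling strength. Their median signal was 130 (percentile 55.2 of the list), against 159 (percentile 65.1) for all bound protein-coding genes. At a stricter IDR of 0.001, where 10 members remain, their median lay at percentile 33.3 of the peaks that pass. Within the members, the median lay at percentile 79.5 for complex I, 50.9 for complex IV and 33.1 for ATP synthase. With 7, 4 and 2 genes these medians are descriptions only.

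**Figure D2:**
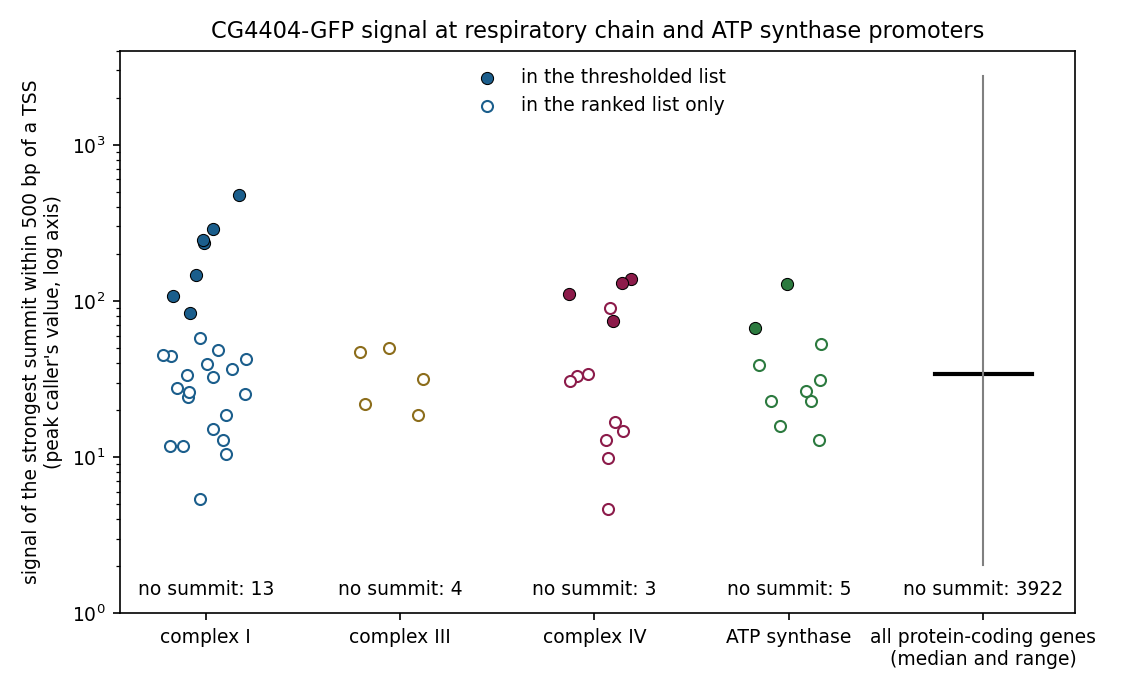
Signal of the strongest candidate summit within 500 bp of a TSS (vertical log axis, the peak caller's value) for each member by complex, filled where the thresholded list holds the peak, with the number of genes that have no candidate summit. At the right are the median (33.9) and the range of all protein-coding genes; the filled points of complex I rise to 477 and complex III has open points only.

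The bound members shared an arrangement that the naming rule did not use. Each of the 13 had a divergent neighbour, meaning a protein-coding gene that starts within 1000 bp and is transcribed the opposite way. Of the bound members 100% were divergent (77.2 to 100%), against 68.75% of all bound protein-coding genes (66.7 to 70.75%). Divergent genes are also common among the members that were not bound: 42 of all 80 members had such a neighbour (52.5%), against 36.2% of all protein-coding genes. Among divergent genes, 13 of 42 members were bound (31.0%, 19.1 to 46.0%), against 27.0% of all protein-coding genes. Among genes without such a neighbour, 0 of 38 members were bound (0 to 9.18%), against 6.95% of all protein-coding genes. The 38 include COX7AL2, whose candidate peak met the IDR limit but is absent from the thresholded list. Both intervals of the members hold the value of all genes, so the members followed the arrangement as other genes did within counting error.

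**Figure D3:**
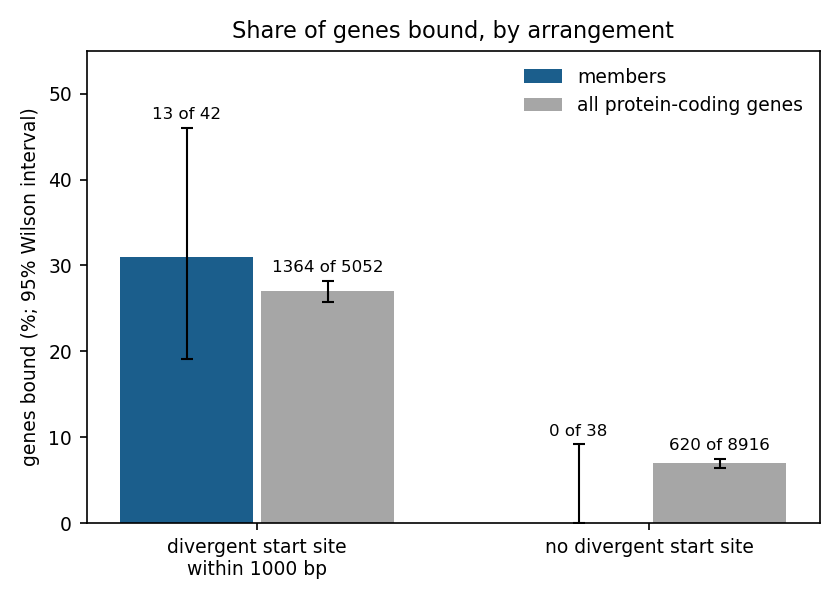
Share of genes bound in the pooled thresholded list (bars from 0, percent) with 95% Wilson intervals, for members (left bar of each pair) and all protein-coding genes (right bar), split by whether a protein-coding gene starts within 1000 bp in the opposite direction. Divergent genes stand at 31.0% of members and 27.0% of all genes, and the others at 0% and 6.95%.

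In each of the 13 cases the summit also lay within 500 bp of the start of the neighbour, so 1 summit counted for both genes and cannot be credited to either. A partner start lay within 500 bp of the summit at 13 of 13 bound members, against 87.1% of all bound divergent genes. Of all bound protein-coding genes, divergent or not, 62.4% shared their summit with another protein-coding start. The summit lay between the nearest start sites of the pair in 12 of the 13 (92.3%), against 80.4% of all bound divergent genes. The exception was ATPsynE, where the summit was 49 bp downstream of its own start, in its 5′ UTR, and 307 bp from that of Afti. The starts of each pair that are nearest to the summit were 96 to 522 bp apart, with a median of 258 bp. Several genes have further starts, and the closest divergent starts of a pair can be nearer, as at COX5A and glo (20 bp) and at ND-24 and corolla (42 bp). The nearest start belonged to the member in 7 of 13 cases (53.8%), against 68.9% of all bound genes.

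**Figure D4:**
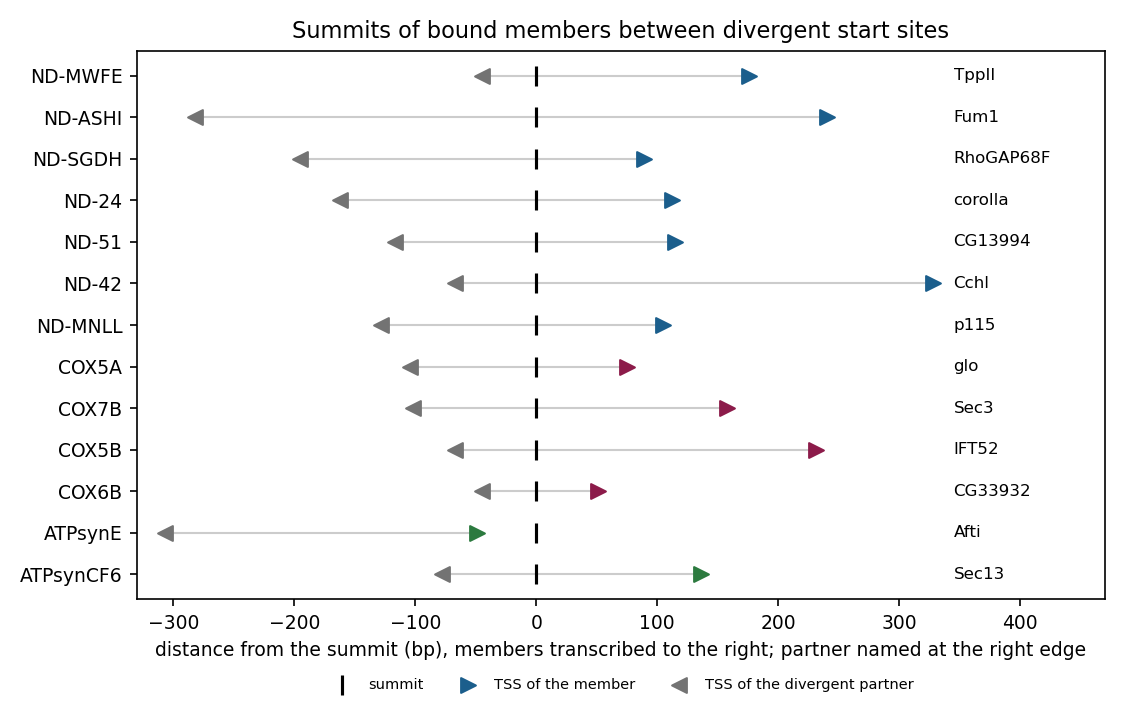
Distance in bp from each summit (vertical tick at 0) to the nearest start site of the bound member (coloured, pointing right) and of its divergent neighbour (grey, pointing left, named at the right edge). In all rows but ATPsynE the tick lies between both plotted starts, which are 96 bp apart at COX6B and 522 bp at ND-ASHI; further starts of the same genes are not drawn.

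A few of the neighbours belong to mitochondrial metabolism themselves. ND-ASHI lies beside Fum1, the fumarase gene, with divergent starts as close as 164 bp, and the summit was 240 bp from the nearest start of ND-ASHI and 282 bp from that of Fum1. ND-42 lies beside Cchl, a lyase that attaches heme to cytochrome c, with divergent starts as close as 229 bp, and here the summit was 328 bp from ND-42 and only 67 bp from the nearest start of Cchl. The other neighbours have varied roles. Sec13, beside ATPsynCF6, is a coat protein of vesicles that leave the endoplasmic reticulum. Sec3, beside COX7B, is part of the exocyst, and p115, beside ND-MNLL, tethers vesicles at the Golgi. IFT52, beside COX5B, works in transport along cilia, and corolla, beside ND-24, belongs to the synaptonemal complex of meiosis. The summit at ND-MWFE was 45 bp from the start of TppII, a peptidase, and 176 bp from that of ND-MWFE. RhoGAP68F lay beside ND-SGDH, glo beside COX5A and CG13994 beside ND-51. At COX6B the neighbours were Rpp20 and CG33932, which share a start, and CG18809 shared the start of COX6B itself. CG45089 likewise shared the start of ND-MNLL.

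Some of these genes have further start sites. ND-24 has another start from which the summit lay 120 bp downstream, and COX5A one from which it lay 165 bp downstream, so both summits were in an intron of the member. For Fum1 and TppII the further start was 934 and 651 bp from the summit, which thus fell in an intron of the neighbour. Cchl has another start from which the summit lay 99 bp downstream, in the 5′ UTR of Cchl.

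Some of the stretches between divergent starts are printed to show what the summits lie in. Each is without annotated exon sequence and in the sense of the member, from the reference copy of dm6. Capitals mark the TATA word TATAAA, the BEAF word CGATA, the DNA replication-related element DRE (TATCGATA) and the promoter element called Ohler 7, on either strand. A match of the opposite strand reads as its reverse complement, and each DRE holds the BEAF word.
ND-51 (chr2L:6062758-6062988, minus strand, summit at base 117 of 231): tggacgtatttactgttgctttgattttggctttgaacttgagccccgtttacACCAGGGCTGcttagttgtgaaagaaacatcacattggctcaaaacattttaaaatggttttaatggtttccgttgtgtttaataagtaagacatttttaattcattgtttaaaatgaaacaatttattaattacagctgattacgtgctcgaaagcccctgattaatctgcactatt
ND-MNLL (chrX:7893799-7894030, minus strand, summit at base 128 of 232): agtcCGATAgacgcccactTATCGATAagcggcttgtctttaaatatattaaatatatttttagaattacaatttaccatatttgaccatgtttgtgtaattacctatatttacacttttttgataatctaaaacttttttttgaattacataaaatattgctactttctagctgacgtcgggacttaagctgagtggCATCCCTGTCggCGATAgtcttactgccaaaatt
ND-SGDH (chr3L:12138585-12138867, minus strand, summit at base 195 of 283): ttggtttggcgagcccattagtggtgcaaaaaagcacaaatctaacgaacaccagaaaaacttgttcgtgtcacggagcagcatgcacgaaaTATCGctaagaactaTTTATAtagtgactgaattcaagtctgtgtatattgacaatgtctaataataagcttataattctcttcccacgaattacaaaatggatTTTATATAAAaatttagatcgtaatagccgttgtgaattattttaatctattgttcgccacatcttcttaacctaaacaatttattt
COX6B (chrX:19744336-19744430, minus strand, summit at base 45 of 95): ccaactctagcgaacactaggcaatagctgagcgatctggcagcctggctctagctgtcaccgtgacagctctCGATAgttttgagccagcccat
COX7B (chr3L:17425218-17425476, plus strand, summit at base 102 of 259): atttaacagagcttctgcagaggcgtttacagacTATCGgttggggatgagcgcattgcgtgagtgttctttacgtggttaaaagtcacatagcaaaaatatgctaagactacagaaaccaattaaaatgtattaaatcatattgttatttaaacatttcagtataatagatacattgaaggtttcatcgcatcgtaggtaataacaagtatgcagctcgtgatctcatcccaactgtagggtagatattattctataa
ATPsynCF6 (chr3R:23356065-23356277, minus strand, summit at base 78 of 213): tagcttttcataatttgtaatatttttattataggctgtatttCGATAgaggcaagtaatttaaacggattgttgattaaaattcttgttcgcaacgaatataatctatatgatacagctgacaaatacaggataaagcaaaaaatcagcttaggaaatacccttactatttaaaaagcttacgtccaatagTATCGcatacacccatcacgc
A and T made up 69.0% of the stretch of ATPsynCF6, 66.2% of that of ND-51 and 45.3% of that of COX6B. In the stretches of ND-24 and COX5A, which are not printed, they made up 77.0% and 70.1%. None of the marked words was found in these. At COX6B, where the starts on either side of the summit are the closest of the 13 pairs, the only marked word is a BEAF word near its own start. At ND-SGDH overlapping TATA words begin right beside the summit, and no Ohler 7 match is present.

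Words were counted within 100 bp of the summits, on both strands. Ohler 7, an element of housekeeping core promoters, was found at 6 of the 13 bound members (46.2%, 23.2 to 70.9%), against 16.2% of all bound protein-coding genes and 19.8% of the bound divergent ones. All 6 belonged to complex I, where only ND-SGDH lacked it among 7, and it was found at 0 of the 6 bound genes of complex IV and ATP synthase. Around the TSSs, Ohler 7 was present in 21.25% of all 80 members, against 12.4% of all protein-coding genes. Among complex I genes it was there at 5 of 7 bound and 7 of 33 unbound ones (71.4% and 21.2%). Among the other members it was at the TSSs of 1 of 6 bound and 4 of 34 unbound ones (16.7% and 11.8%). This split by complex was seen after the words had been counted, and it rests on few genes.

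The Ohler 7 matches are printed with 10 bases either side, each in the sense of the element and with the element in capitals. They were found by searching for the element, so the likeness of the capitals was set in advance.
ND-24 (chrX:17632261-17632290, plus strand): gagatttgctCATCTCTGACgacaagtgcc
ND-42 (chr3R:22027278-22027307, minus strand): gttggtctggCAGCCCTGACcacaacctcg
ND-51 (chr2L:6062916-6062945, plus strand): cacaactaagCAGCCCTGGTgtaaacgggg
ND-ASHI (chrX:6679287-6679316, minus strand): ttcatgtgacCAGCGCTGTTcctcgggatt
ND-MNLL (chrX:7893813-7893842, minus strand): agctgagtggCATCCCTGTCggcgatagtc
The matches of ND-51 and ND-42 begin with the same 8 letters, most of which the element itself fixes. At ND-ASHI a further match lies on the other strand, shifted by 2 bases, because the word there reads nearly alike both ways. In these genes the matches lay 54 to 88 bp from the summit, and at ND-MWFE the match lay 13 bp from it.

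Of the other words, CAGCTG was also above the background, near 4 of 13 summits (30.8%, 12.7 to 57.6%, against 11.2%): ND-42, ND-51, ATPsynE and ATPsynCF6. Around the TSSs, however, CAGCTG was present in 38.5% of bound and 28.4% of unbound members, against 17.4% of all protein-coding genes. In complex I it was there at 42.9% of bound and 42.4% of unbound genes, and among the other members at 33.3% and 14.7%. It was thus not particular to the bound members. TATAAA lay near 5 of 13 summits (38.5%, against 42.2% of all bound genes) and the DRE near 1, that of ATPsynE (7.69%, against 6.60%). The BEAF word CGATA lay near 7 (53.8%, 29.1 to 76.8%, against 37.9%), of which 5 were among the 6 genes of complex IV and ATP synthase. Around the TSSs the order turned, with CGATA at 6 of the 7 bound genes of complex I (85.7%) and at 3 of the other 6 bound members (50%). The GAGA word GAGAG lay near 1, COX6B (7.69%, against 17.7%). The E-box CACGTG was found at 0 of the 13 (against 1.97%). GCGCATGC, the core of the site of the mammalian regulator NRF-1, was found at 0 as well (against 0.202%), and 13 summits allow a share of up to 22.8% (upper Wilson bound).

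The 67 members that were not bound were then searched for weaker peaks. In the ranked list, which keeps every candidate, 55 of the 80 members had a summit within 500 bp of a TSS (68.75%), against 71.9% of all protein-coding genes. Of the unbound members 42 had one (62.7%), against 67.3% of all unbound genes, with a median signal of 26.2 against 29.0. The other 25 had none. No unbound member had a thresholded summit within 1000 bp, and the nearest was 1364 bp away (median 9803 bp, 65 genes on arms with peaks).

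COX7AL2, a later copy of a complex IV gene, had the highest signal of the unbound members. Its candidate summit had a signal of 90.6 in the pooled list, 45.4 in replicate 1 and 41.5 in replicate 2, and lay 446 bp downstream of a start, in its 5′ UTR. Its IDR was 0.00137 and thus under the limit of 0.01 that every thresholded peak met. It was nevertheless absent from the thresholded list used here, as were 113 such peaks in all. By signal, next came ND-23, a core iron-sulphur subunit, with 57.4 in the pooled list, 22.5 in replicate 1 and 44.9 in replicate 2 (IDR 0.165). ATPsynC, the subunit of the rotating ring, had 52.9 in the pooled list, 44.9 in replicate 1 and 20.1 in replicate 2. By its IDR in this list (0.0182) ATPsynC was nearer to the limit than ND-23. A further pooled ranked list, which compares the replicates, gave the other order, with an IDR of 0.606 for ATPsynC and 0.352 for ND-23. UQCR-6.4L had 50.3 and ND-B14.5AL 48.2. The peaks just inside the threshold were ATPsynCF6 (IDR 0.00986) and ND-MNLL (IDR 0.00401).

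All 9 genes of complex III were unbound. Candidate summits lay at 5 of them, with signals of 18.6 at UQCR-14L, 21.9 at UQCR-C2, 31.6 at UQCR-11, 46.8 at UQCR-11L and 50.3 at UQCR-6.4L. UQCR-C1 and UQCR-C2 encode the large core proteins that face the matrix. UQCR-C1, UQCR-Q, UQCR-14 and UQCR-6.4 had no candidate in the pooled list. Only 2 of the 9 genes had a divergent neighbour, against 22 of 40 in complex I, 8 of 16 in complex IV and 10 of 15 in ATP synthase.

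Later copies were set beside the other members. By symbol, 17 members are copies of another member, and 4 more (COX6AL, COX6AL2, COX6CL and ATPsynepsilonL), added after seeing the data, are copies of genes with other names. Of the 21 later copies 0 were bound (0 to 15.5%), against 13 of the 59 others (22.0%, 13.4 to 34.1%). Both intervals hold the 14.2% of all protein-coding genes. Candidate summits lay at 76.2% of the later copies and at 66.1% of the other members. Only 3 of the 21 later copies had a divergent neighbour (14.3%), against 39 of the 59 others (66.1%). Whether the arrangement accounts for the lower share of later copies bound was not tested.

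Among the 29 unbound members with a divergent neighbour, 2 had a neighbour that was itself bound: ND-13A, beside Msp300, and ND-39, beside ZnT77C. The nearest thresholded summit lay 7893 bp from a start of ND-13A and 1547 bp from a start of ND-39. The closest divergent starts of these pairs were 589 and 426 bp apart, so neither summit lay between them.

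Genes of the same pathway that carry other names were examined in the same way, from a list of 19. Of these, 5 were bound, against 14.2% of all protein-coding genes. The list was drawn up by hand, with earlier results of these data known. With 19 genes the count was not read as a difference from all genes. They were levy (signal 559), which encodes subunit 6A of complex IV; cype (94.6), subunit 6C; blw (475), the alpha subunit of ATP synthase; Cyt-c-d (317), a cytochrome c; and CIA30 (1638), an assembly factor of complex I. The summit at Cyt-c-d lay 369 bp downstream of its start, and the others lay 113 to 265 bp upstream. In levy, replicate 1 gave 340.0 and replicate 2 gave 221, and in blw they gave 253 and 212. All but Cyt-c-d had a divergent neighbour. At 4 of the 5 the summit also lay within 500 bp of a start of another protein-coding gene. These were wmd at levy, Ncoa6 at cype, CG7601 at CIA30 and CG31808 at Cyt-c-d. Their signals therefore cannot be credited to the pathway gene alone. The complex II genes SdhA, SdhB, SdhC and SdhD were unbound, as were Cyt-c1, RFeSP and ox of complex III, Cyt-c-p, and sun, the epsilon subunit of ATP synthase. The regulators ewg, srl and TFAM were unbound too, as were the assembly factors Scox and Surf1.

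By chromosome arm, 4 of 12 members were bound on X (against 15.0% of all protein-coding genes there), 4 of 16 on 3R (against 15.0%), 2 of 16 on 2L (against 13.5%), 2 of 19 on 3L (against 15.7%) and 1 of 15 on 2R (against 12.3%), where ND-MWFE lies.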

How the data were processed

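ChIP-seq of CG4404-GFP was analysed in 2 biological replicates of 1 group, with no control group. Whether the peak calls used a control library was not examined here. The members and lists were chosen with earlier results of these data known. The authors deposited dm6 peak lists, named as ranked or IDR-thresholded, for each replicate and for the pooled replicates. The aligner and the peak caller were not given in the sources used here. Signal, as deposited (seventh column), is the peak caller's value for a peak. The ranked lists, as deposited, also give the −log10 of the IDR. The larger, non-conservative pooled list was used, and the depth of the libraries is unknown here.

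Genes came from the Ensembl annotation of BDGP6 (the dm6 assembly), 18277 on 7 arms, and all 80 members had the same coordinates in RefSeq. Peak ends fell within the arms of the reference sequence. A gene took its strongest summit within 500 bp of a TSS. Wilson intervals (95%) and the limit that a count of 0 allows (3 counts) cover counting error only, and genes that share a summit are not independent. Alternatives were a window of 250 or 1000 bp, the conservative list, an IDR of 0.001, the 5′ end only, any base of the peak and each replicate alone. Every bound member was named, with its neighbours at the summit, the 5 unbound members of highest candidate signal, the core subunits of complex I, and the beta and gamma subunits of ATP synthase. The complex III genes were named after their values had been seen. The counting of genes and words was tested on simulated data. Python 3.11.15, pandas 2.3.3 and numpy 2.4.6 were used.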

Additional observations from a re-analysis of the deposited data

How the results depend on the processing

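The count of 13 bound members was 13 with a window of 1000 bp, with the conservative list, with the 5′ end only and with any base of the peak. It was 12 within 250 bp, without ND-42, and 10 at an IDR of 0.001, without ATPsynCF6, COX6B and ND-MNLL. At ND-42 the strongest summit in the conservative list had a signal of 77.1, against 107 in the list used here. The share of all protein-coding genes bound moved as well. It was 16.7% at 1000 bp, slightly above the 16.25% of the members, and 11.1% at 250 bp. The conservative list gave 13.9%, the 5′ end only 12.5%, any base of the peak 15.3% and an IDR of 0.001 gave 10.6%. Leaving out 1 replicate gave 8 to 11 members, 4 to 6 of complex I and 1 of ATP synthase. ATP synthase also had 1 at an IDR of 0.001. Bound members with a divergent neighbour numbered 8 to 11 when 1 replicate was left out. The 8 came without replicate 1, that is from replicate 2 alone. The median percentile of 55.2 became 56.8 within 250 bp, 58.5 within 1000 bp, 53.4 in the conservative list and 33.3 at an IDR of 0.001, and 51.5 to 51.6 with 1 replicate left out. Fewer peaks remain in the list in which it is ranked at a stricter IDR.

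Another pair of alternatives was chosen after seeing the data. Putting back the passing peaks that the thresholded list lacks gave 14 members, with COX7AL2 added, and 14.5% of all protein-coding genes. Giving each summit to the gene of the nearest start only left 7 members, all of them divergent, with 1 in complex IV and 1 in ATP synthase, at a median percentile of 60.96. It left 1366 of all protein-coding genes (9.78%). No paired analysis was possible because there is 1 group. The number of genes per complex, 9 to 40, limits what a difference between complexes could show, and the depth was not used here.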
